A study of Saccharomyces cerevisiae with 117 samples.

Results

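The 10 genes described here encode the enzymes and carriers of fatty acid beta-oxidation in the peroxisome of budding yeast. They were chosen by name from known function and are POX1, FOX2, POT1, FAA2, PXA1, PXA2, ECI1, SPS19, DCI1 and CTA1. All 10 were found among the 6420 gene entries counted in each library, and every entry was used. Each library came from 1 spheroplast, a cell whose wall had been removed with Zymolyase, of a single clone of the laboratory strain S288C grown in YPD medium to mid-log phase. The spheroplasts were held in S medium with glucose, amino acids and 1 M sorbitol (isotonic), in the same medium without amino acids (AAS), in the same medium without glucose (GS), or without sorbitol (hypotonic). The labels give an exposure of at least 30 min and up to 5 h, the paper's methods give a shorter range, and no source used here gives the time for single cells. Cells treated with GS and named Y5 (27 cells) were compared with the 19 isotonic cells of batch 2, and 20 AAS and 12 hypotonic cells were compared with the 19 isotonic cells of batch 1. The question was how the pathway behaved when glucose, amino acids or osmotic support was taken away. A further 20 GS cells named Y2 are described with the closing observations.

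In yeast, fatty acids are broken down only in the peroxisome. Very long and long chains enter as CoA esters through the Pxa1-Pxa2 transporter pair, while medium chains are activated inside the organelle by the acyl-CoA synthetase Faa2. Pox1 then oxidises the acyl-CoA and makes hydrogen peroxide, the bifunctional enzyme Fox2 hydrates and oxidises the product, and the thiolase Pot1 releases acetyl-CoA. Eci1 and Sps19 rearrange the double bonds of unsaturated chains, Dci1 is a relative of Eci1, and the peroxisomal catalase Cta1 removes the peroxide. These genes are known for repression by glucose, for derepression through the kinase Snf1 and the activator Adr1, and for strong induction on oleate through the Oaf1-Pip2 factor, which binds the oleate response element (ORE).

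The genome carries this last element in front of most of these genes. In the 500 bases before the start codon, 9 of the 10 genes held at least 1 exact match to the ORE, spelled CGGNNNTNANNNNNNNNNCCG or with 10, 11 or 12 bases in place of the last 9 N, searched on both strands of the RefSeq R64 sequence. PXA1 held none in that window. Of 6000 such windows of protein-coding genes, 113 (1.88%) held a match. The members are known for induction through the factor that binds this element, so their share beside that of all windows is a description and not a test. The members had 11 places in all, and each is a match of letters, not a measured binding site. The place nearest to the start codon is shown for each of the 9 genes with a match, on the strand of the gene. The match is in capitals, with 25 bases on each side, and for FOX2 and FAA2 it spells the ORE only when read on the opposite strand:
POX1, chrVII:107858-107930, plus strand: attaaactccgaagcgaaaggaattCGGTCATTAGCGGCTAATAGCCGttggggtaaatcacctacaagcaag
FOX2, chrXI:457280-457350, minus strand: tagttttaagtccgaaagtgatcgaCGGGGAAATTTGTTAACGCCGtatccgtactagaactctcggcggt
POT1, chrIX:41585-41657, minus strand: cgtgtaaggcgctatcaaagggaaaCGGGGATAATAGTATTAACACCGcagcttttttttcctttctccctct
FAA2, chrV:184330-184402, plus strand: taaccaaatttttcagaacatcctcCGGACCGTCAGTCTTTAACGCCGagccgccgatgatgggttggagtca
PXA2, chrXI:89010-89083, minus strand: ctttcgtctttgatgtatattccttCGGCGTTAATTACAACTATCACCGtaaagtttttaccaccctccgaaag
ECI1, chrXII:707166-707238, minus strand: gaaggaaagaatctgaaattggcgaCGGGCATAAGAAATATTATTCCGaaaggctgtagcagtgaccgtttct
SPS19, chrXIV:259387-259460, plus strand: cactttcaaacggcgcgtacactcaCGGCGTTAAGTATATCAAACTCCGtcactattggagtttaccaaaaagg
DCI1, chrXV:675261-675334, minus strand: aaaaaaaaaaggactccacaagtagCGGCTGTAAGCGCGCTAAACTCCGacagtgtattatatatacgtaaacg
CTA1, chrIV:969841-969914, minus strand: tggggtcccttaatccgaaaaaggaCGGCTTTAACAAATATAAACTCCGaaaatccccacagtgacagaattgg

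These matches ended between 118 bases (DCI1) and 252 bases (POX1) before the start codon. POX1 and FOX2 each had another place, at 289 and 282 bases. A short form of the site bound by Adr1, spelled TTGGNG, was present in 9 windows and absent from that of PXA2, but 51.4% of all windows held it. The carbon source response element (CSRE) of gluconeogenic genes, searched as CCNTNNNNCCG, was present in front of ECI1, DCI1 and CTA1 and in 7.08% of all windows.

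Each member is a single uninterrupted coding exon. FOX2 (YKR009C) lies on chromosome XI at 454352 to 457054, POX1 (YGL205W) on chromosome VII at 108158 to 110404 and POT1 (YIL160C) on chromosome IX at 40191 to 41444. FAA2 (YER015W) lies on chromosome V at 184541 to 186775, where 160 bases overlap BUD25 on the opposite strand. BUD25 was listed with 0 reads in every group, and reads in the shared stretch cannot be assigned to a strand in these libraries. The most alike members were ECI1 and DCI1, whose coding sequences were 54.1% identical with a longest shared run of 17 bases, so reads of 100 bases separate them.

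The depth differed widely between batches. The 27 GS cells had 705807 to 2535593 reads on genes (median 1428533), and the isotonic cells of batch 2 had 14245 to 1133518 (median 433165). Libraries of batch 1 were deeper, from 3112955 to 8502504 in AAS, from 4297691 to 7870247 in hypotonic and from 3603505 to 55179414 in isotonic cells. Genes with a read numbered 1199 (median) per GS cell and 1047 per isotonic cell of that batch, against 4962.5 (AAS), 3255 (hypotonic) and 4211 (isotonic) in batch 1. S288C is a MATalpha strain, and MF(ALPHA)1, the alpha-factor gene, was read in 25 of 27 GS cells and 16 of 19 isotonic cells of batch 2. Other alpha-specific genes were sparser, with MF(ALPHA)2 read in 9 GS and 3 isotonic cells. STE3 was read in 5 GS and 8 isotonic cells and was lower in GS, at means of 0.86 ± 2.59 and 115 ± 351 CPM. None of 4 genes specific to a cells had a read in batch 2 cells of these groups. In batch 1 MF(ALPHA)1 was read in 20 of 20 AAS and 18 of 19 isotonic cells, at means of 638 ± 393 and 569 ± 540 CPM. STE3 was read in 20 and 15 of them, at 547 ± 520 and 321 ± 391 CPM. Reads of a-specific genes were also present at lower levels, with STE2, the alpha-factor receptor, read in 11 of 20 AAS, 3 of 12 hypotonic and 8 of 19 isotonic cells at means of 15.9 ± 21.3, 8.58 ± 29.6 and 1.68 ± 4.61 CPM. The other a-specific genes did not share 1 direction in AAS, with log2 fold changes of 2.86 (BAR1), -1.58 (MFA2) and -0.52 (MFA1). No separate cultures are named in the labels, so each group counted as 1 sample. No test across cells was made, values are given with the standard deviation (SD) over cells, and a gene is called higher or lower where its mean differed at least 2-fold. Exact intervals cover counting error only, because reads copied by PCR are not independent molecules.

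Beta-oxidation genes were read at high levels in many glucose-starved cells and hardly at all in the isotonic cells of the same batch. Counts were scaled to CPM, the usual per-library scaling to reads on genes, and the summed CPM of the 10 genes ran from 0 to 16831 in GS cells with a median of 509.1, and from 0 to 70.2 in isotonic cells with a median of 0. The means were 2730 ± 4661 (SD, n = 27 cells) and 4.63 ± 16.01 (SD, n = 19 cells). The ranges overlapped at the low end, and 19 of 27 GS cells were above the highest isotonic cell. The 27 GS cells held 140235 reads of these genes in all, and the 19 isotonic cells held 10 reads, never more than 2 of a gene in a cell.

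All 10 genes were at least 2-fold higher in GS cells. The background was 43.8% of the 5280 genes with any read in these cells, and 43.3% of the 1856 genes read in at least 20% of them. Of the members, only FOX2, POT1, ECI1 and CTA1 passed that detection filter. On the scale of log2(mean CPM + 1) the median fold change of the 10 genes was 7.66, from 4.23 (PXA2) to 8.68 (ECI1), against 0.57 over the 1856 genes. Leaving out, gene by gene, the top cell on either side, 9 of the 10 stayed at least 2-fold higher, and SPS19 did not. For the 6 genes with 0 reads in isotonic cells, folds of summed reads are given as lower limits, with 3 reads over the group set as a floor. The same floor was used for ADR1 and PEX9 below. Such a limit covers the counting of reads only, and reads copied by PCR are not independent molecules. It does not cover cells that were not sampled, since 0 of 19 cells allows a share of up to 17.6%. It is therefore not a limit on expression in isotonic cells.

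**Figure D1:**
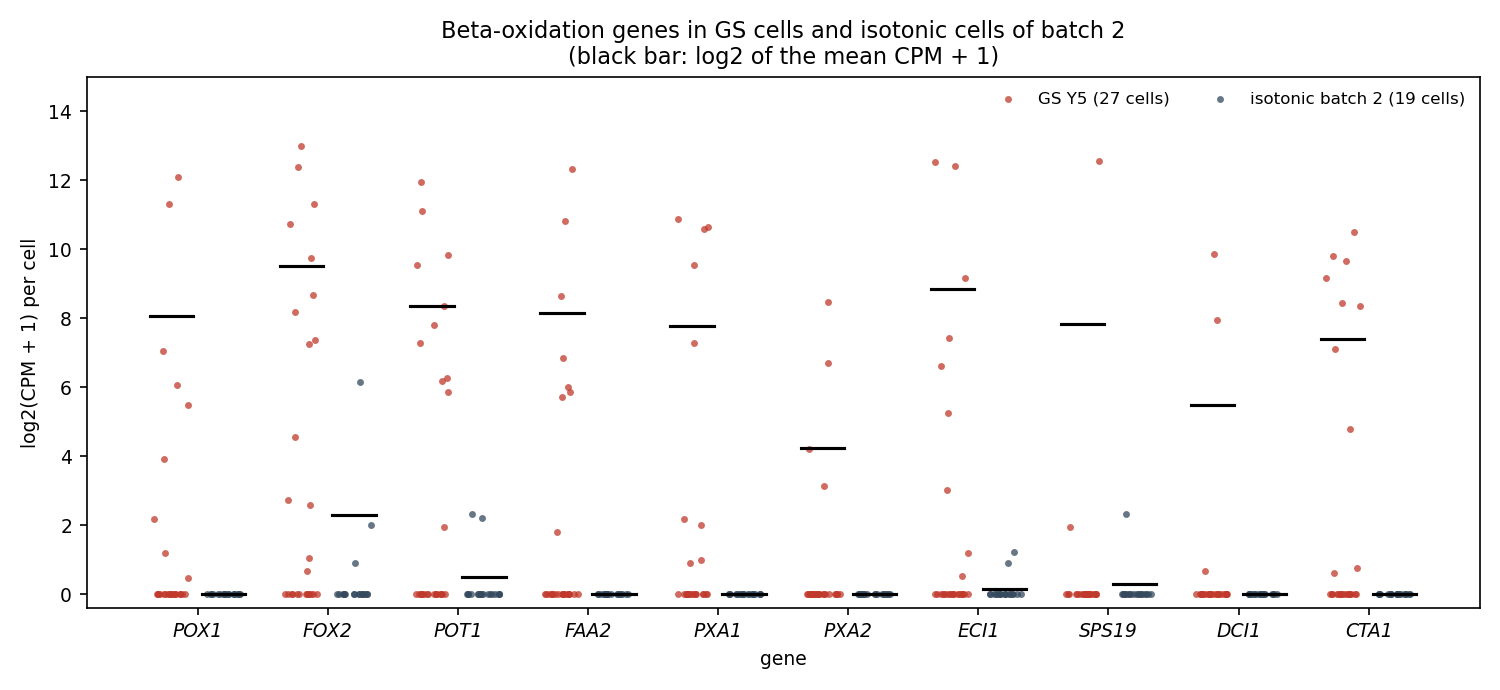
Each point is 1 cell, with log2(CPM + 1) on the vertical axis and the 10 genes on the horizontal axis, for 27 GS cells (red) and 19 isotonic cells of batch 2 (dark); black bars give log2 of the mean CPM + 1. Of the 270 values of GS cells 191 are 0, 21 lie above 0 and under 10 CPM, 14 from 10 to 100 CPM and 44 higher, while 182 of the 190 values of isotonic cells are 0.

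The core steps were each read in a part of the GS cells. FOX2, the bifunctional hydratase and dehydrogenase, was the most widely read, in 14 of 27 GS cells (51.9%, exact Clopper-Pearson 95% interval 31.9 to 71.3%) and in 3 of 19 isotonic cells (15.8%, 3.38 to 39.6%). Its CPM ran from 0 through a median of 0.60 to 8152 in GS cells, with a mean of 726 ± 1868 (SD, n = 27), and from 0 to 70.2 in isotonic cells, with a mean of 3.90 ± 16.1 (SD, n = 19). The isotonic mean rested on cell Y718, a shallow library in which 1 read weighs 70.2 CPM. The log2 fold change was 7.21, and 9.22 without that cell. In summed reads the GS group was 1820-fold above 4 isotonic reads, with a counting interval of 711 to 6679.

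POT1, the thiolase of the last step, was read in 11 GS cells (40.7%) and 2 isotonic cells. The highest GS cell had 3988 CPM and the highest isotonic cell 4.05 CPM, and 10 GS cells were above the latter. The means were 325 ± 866 (SD, n = 27) and 0.40 ± 1.21 (SD, n = 19), a log2 fold change of 7.86. POX1, the acyl-CoA oxidase of the first step, was read in 9 GS cells (33.3%) and in 0 of 19 isotonic cells, which allows a share of up to 17.6%. Its GS mean of 267 ± 958 CPM (SD, n = 27) came mostly from cell Y521 at 4383 CPM, which held 60.9% of the summed CPM. In summed reads POX1 was higher by at least 821-fold, or 275-fold without Y521, and its log2 fold change was 8.06, or 6.77 without that cell.

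The entry genes differed between the partners of the transporter. PXA1 was read in 9 GS cells with a mean of 218.6 ± 544 CPM (SD, n = 27) and a highest value of 1887 CPM, and PXA2 in 4 GS cells with a mean of 17.8 ± 69.8 CPM and a highest value of 352 CPM. Per kilobase of coding length the GS means were 83.7 CPM for PXA1 and 6.95 CPM for PXA2. No GS cell held reads of both, but with 9 and 4 of 27 cells few shared cells could be looked for. The lack of overlap was not tested. Neither gene had a read in isotonic cells of batch 2, so PXA1 was at least 716.9-fold and PXA2 at least 33.1-fold higher in summed reads. Without Y508 the limit of PXA1 was 457-fold. Cell Y522 held 73.3% of the CPM of PXA2, and without it the limit was 10.1-fold and the log2 fold change 2.57 in place of 4.23. FAA2, the medium-chain acyl-CoA synthetase, was read in 8 GS cells at up to 5126 CPM, with a mean of 282 ± 1029 CPM (SD, n = 27), and in 0 isotonic cells. In summed reads this is at least a 1038-fold excess. Cell Y525 held 67.4% of the CPM of FAA2, and without it the limit was 194-fold and the log2 fold change 6.59 in place of 8.14.

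Among the auxiliary enzymes, ECI1, the enoyl-CoA isomerase, had a log2 fold change of 8.68. This was the highest of the 10 genes on this scale. In summed reads ECI1 was 2517-fold higher (counting interval 697 to 20783) and FOX2 1820-fold (711 to 6679), and these intervals overlapped. With 1 CPM added to the summed values, FOX2 was above ECI1 (9.24 and 8.97 in log2), as it was without the highest cells (8.50 and 7.88). ECI1 was read in 9 GS cells at up to 5943 CPM, with a mean of 457 ± 1524 (SD, n = 27), and in 2 isotonic cells with 1 read each. SPS19, the dienoyl-CoA reductase, was read in 2 GS cells, and 1 of them, Y530, had 6090 CPM and 99.95% of the GS signal. Its log2 fold change was 7.55 and fell to -0.13 without Y530, so the value describes that cell. DCI1 was read in 3 GS cells, with 937 CPM in Y518 as the highest, and in 0 isotonic cells, which is at least a 124-fold excess in summed reads. Y518 held 79.3% of the CPM of DCI1, and without it the limit was 26.1-fold and the log2 fold change 3.38 in place of 5.48.

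CTA1, the peroxisomal catalase, was read in 10 GS cells (37.0%, 19.4 to 57.6%) and in 0 isotonic cells. Its highest value was 1445 CPM in Y527, its mean was 169 ± 358 CPM (SD, n = 27), which is at least a 569-fold excess in summed reads. Of the 9 GS cells that held POX1, 7 also held CTA1, but often with only 1 or 2 reads of 1 partner. Y521 and Y513 had 8477 and 3639 reads of POX1 and 1 read each of CTA1. Y525 and Y527 had 1 and 2 reads of POX1 and 2028 and 2249 of CTA1. The Spearman correlation of the CPM of POX1 and CTA1 over 27 cells was 0.50, the highest of the 45 pairs of members. It describes cells that share a batch and differ in depth, and it was not tested.

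Single GS cells held different sets of these genes. The number of members read ran from 0 to 7 per cell with a median of 3, and 6 cells held at least 5. The leading gene took a median of 60.6% of a cell's member reads, and it was FAA2 in 5 cells, FOX2 in 4, PXA1 in 4, POX1 in 3 and ECI1 in 3. All of POX1, FOX2 and POT1 were read in only 2 of 27 cells, any 2 of them in 11, 1 in 6 and none in 8. Over all 45 pairs the Spearman correlation had a median of 0.16 and ran from -0.29 (PXA1 with PXA2) to 0.50.

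The 4 highest cells made up 70.0% of the summed CPM of the group. Y530 had 16831 CPM, led by SPS19 (6090 CPM) and ECI1 (5943 CPM), and Y527 had 13839 CPM, led by FOX2 (8152 CPM) and POT1 (3988 CPM). Y526 had 11919 CPM, nearly all from ECI1 (5505 CPM) and FOX2 (5314 CPM), and Y525 had 9018 CPM, led by FAA2 (5126 CPM). At the other end, Y501, Y504, Y505, Y506 and Y517 had 0 reads of any member. The first 4 of these are among 6 GS cells that the study did not keep. Of those 6 cells 2 held a member, while 20 of the 21 kept cells did. The Spearman correlation of the number of members read with the number of genes read was 0.38 over 27 GS cells, against 0.49 over the isotonic cells of batch 2, 0.89 over AAS, 0.82 over hypotonic and 0.94 over isotonic cells of batch 1, and its part in the differences between cells and groups was not tested.

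**Figure D2:**
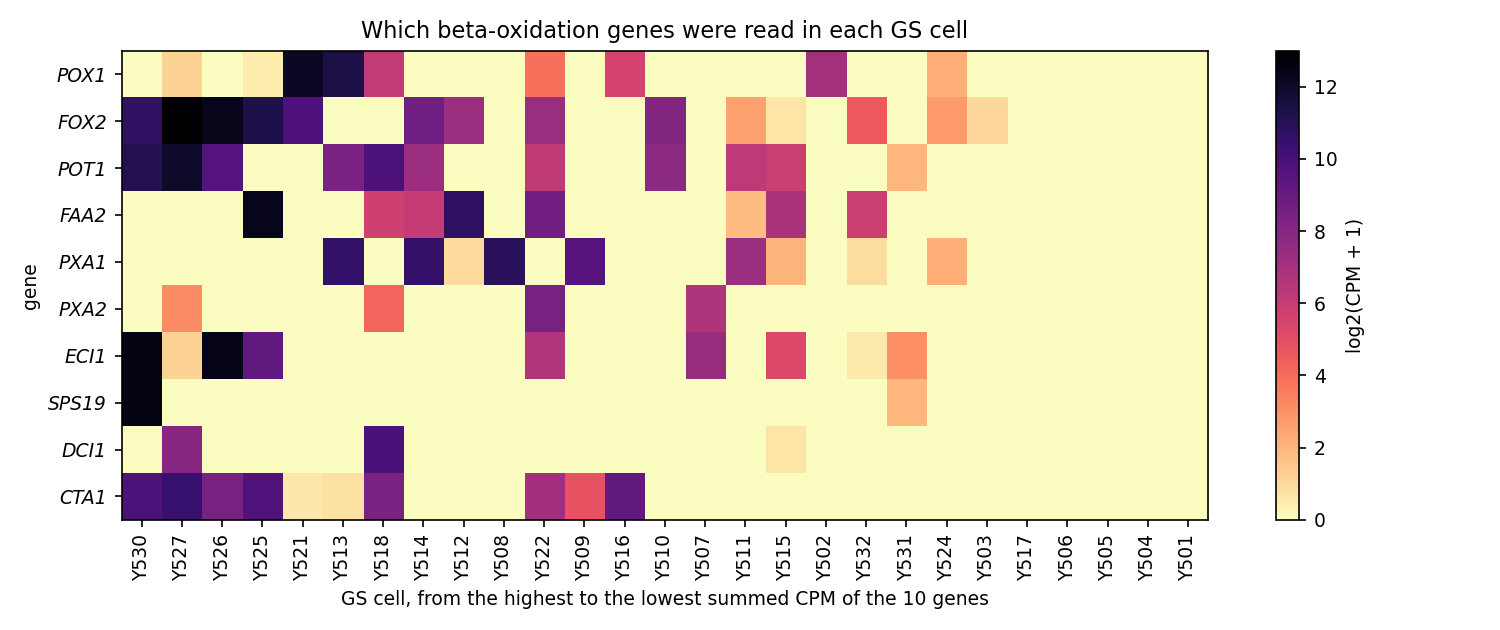
Rows are the 10 genes and columns the 27 GS cells, ordered from the highest to the lowest summed CPM, with the colour giving log2(CPM + 1). The 4 cells on the left hold 70.0% of the summed CPM, the 5 on the right hold no read, and the set of genes differs from cell to cell.

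The share of cells with a read depends on depth, so each cell was also thinned to 100000 reads on genes, which left 27 GS and 12 isotonic cells. At full depth 22 of 27 GS cells (81.5%, 61.9 to 93.7%) and 6 of 19 isotonic cells (31.6%, 12.6 to 56.6%) held a read of any member. After thinning these were 20 of 27 (74.1%, 53.7 to 88.9%) and 1 of 12 (8.33%, 0.21 to 38.5%), with intervals that cover counting error over cells of 1 sample each. A second random draw at the same depth gave 21 of 27 GS cells and 1 of 12 isotonic cells. In the first draw FOX2 was read in 11 GS cells and 1 isotonic cell, and the other 9 genes in 1 to 10 GS cells and 0 isotonic cells. Thinned isotonic cells had a median of 1013 genes with a read and GS cells 737. In batch 1, thinned to 3000000 reads, the medians were 3871 genes in isotonic, 4884.5 in AAS and 3136 in hypotonic cells, so the isotonic cells of batch 1 held fewer genes than AAS cells.

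The isotonic cells of the batches differed in these genes. In batch 1 all 19 isotonic cells held a member, and their summed CPM ran from 0.54 to 1386 with a median of 244 and a mean of 387 ± 420 (SD, n = 19), against 4.63 ± 16.01 in batch 2. When batch 1 isotonic cells were thinned to 100000 reads in the second draw, 17 of 19 (89.5%, 66.9 to 98.7%) still held a member, against 1 of 12 in batch 2. With the isotonic cells of batch 1 as the reference, an alternative chosen after seeing the data, all 10 members were still at least 2-fold higher in GS cells, but the median log2 fold change was 2.75 in place of 7.66. Batch and treatment cannot be told apart in that comparison, and the median share of spike-in (ERCC) reads was 43.99% for GS cells, 79.2% for batch 2 isotonic cells and 0% for batch 1 isotonic cells. The part of these differences in the result was not tested.

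**Figure D3:**
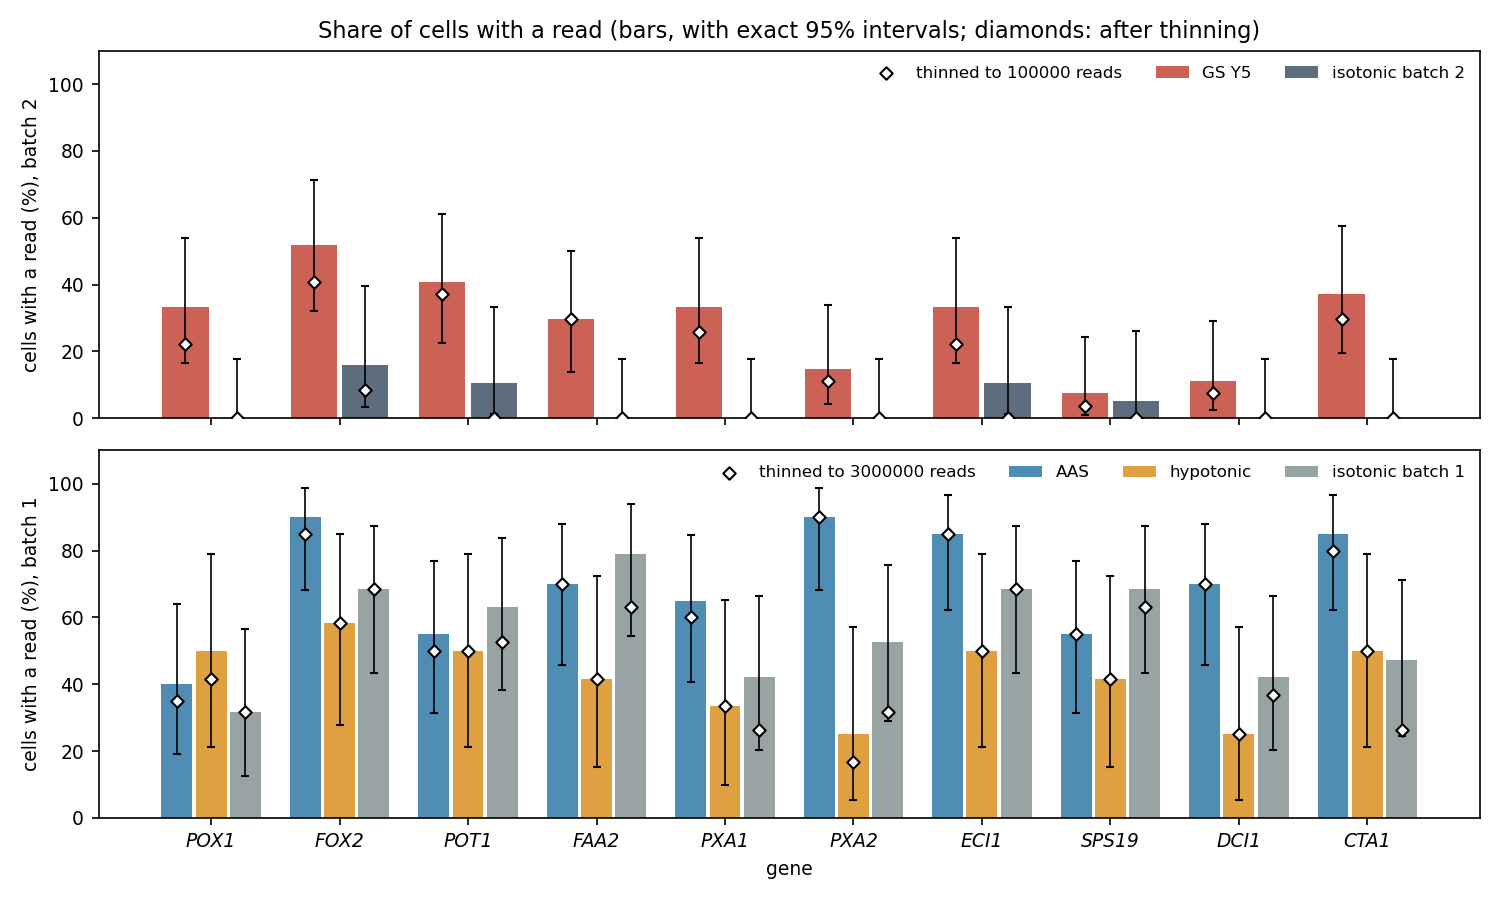
Bars give the share of cells with at least 1 read of each gene, with exact 95% intervals, for GS and isotonic cells of batch 2 (top) and for AAS, hypotonic and isotonic cells of batch 1 (bottom); diamonds give the share after thinning to 100000 and 3000000 reads. FOX2 was read in 51.9% of GS cells and 15.8% of isotonic cells of batch 2, while in batch 1 PXA2 was read in 90% of AAS cells and 52.6% of isotonic cells.

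Under amino acid starvation the members did not move together. The transporter genes PXA2 and PXA1, FOX2 and DCI1 were higher in AAS cells, POX1 was lower, and the other 5 lay within 2-fold. The count of higher members ran from 3 to 7 over the alternatives. FOX2 was at 0.95 with DESeq2 size factors and DCI1 at 0.88 with a pseudocount of 10 CPM, both within 2-fold. The background was 39.8% of 5814 genes higher and 12.3% lower, so 4 of 10 higher and 1 of 10 lower is close to what all genes showed. The median log2 fold change was 0.11, against 0.65 over all genes. The summed CPM ran from 6.20 to 903 in AAS cells with a mean of 542 ± 238 (SD, n = 20), against 387 ± 420 (SD, n = 19) in isotonic cells, and 0 AAS cells were above the highest isotonic cell.

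PXA2 stood out in level and in spread. It was read in 18 of 20 AAS cells (90%, 68.3 to 98.8%) and in 10 of 19 isotonic cells (52.6%, 28.9 to 75.6%), or in 18 and 6 cells after thinning to 3000000 reads, a depth at which AAS cells also held more genes in all. Its CPM ran from 0 through a median of 94.1 to 402 in AAS cells and from 0 through 0.11 to 29.2 in isotonic cells, and 16 of 20 AAS cells were above the highest isotonic cell. The means were 115 ± 103 (SD, n = 20) and 3.22 ± 8.14 (SD, n = 19), a log2 fold change of 4.79, which ranged from 2.77 to 6.14 over 15 alternatives. Its partner PXA1 was read in 13 AAS and 8 isotonic cells, with means of 36.6 ± 51.7 and 3.32 ± 12.1 CPM and a log2 fold change of 3.12.

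FOX2 was read in 18 AAS and 13 isotonic cells, with medians of 80.7 and 0.80 CPM, means of 99.0 ± 98.0 and 25.8 ± 45.5 CPM and a log2 fold change of 1.90. DCI1 had means of 24.6 ± 37.4 and 8.80 ± 19.7 CPM and a log2 fold change of 1.39, which was -0.57 when only the 7 AAS cells with X in their name were used. CTA1 was read in 17 AAS and 9 isotonic cells, or 16 and 5 after thinning, with medians of 67.3 and 0 CPM. Its means of 81.03 ± 80.1 and 53.9 ± 223 CPM gave a log2 fold change of 0.58, because isotonic cell G53 had 972 CPM and 94.9% of that group's signal. Without the highest cell of each group it was 4.23.

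The remaining members were not higher in AAS cells by their means. POX1 was low in both groups, with means of 5.69 ± 14.4 and 19.7 ± 68.7 CPM, and its log2 fold change of -1.63 became 0.36 without isotonic cell E10X. POT1, FAA2, ECI1 and SPS19 had log2 fold changes of -0.56, -0.36, -0.86 and -0.60. By medians, however, FAA2 had 41.8 CPM in AAS and 0.77 in isotonic cells, and ECI1 had 49.1 and 4.26 CPM. The medians of POT1 were 1.91 and 0.34 CPM, and those of SPS19 went the other way at 0.58 and 1.38 CPM. Isotonic cell G57 held 57.6% of that group's CPM of FAA2, and A34 held 64.1% of that of ECI1. When cells were averaged on the log2(CPM + 1) scale, which gives single high cells less weight, 7 members were higher, FAA2 and ECI1 among them at 1.83 and 1.33.

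Hypotonic cells gave no common direction either. POX1, POT1 and PXA1 were higher, FAA2, ECI1 and CTA1 were lower, and 4 lay within 2-fold, against a background of 19.3% of 5575 genes higher and 31.8% lower. The median log2 fold change of the 10 genes was 0.13 and that of all genes -0.32. The summed CPM ran from 0 to 1251 in 12 hypotonic cells, with a mean of 329 ± 372 (SD, n = 12), and 3 of them held no member.

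Most of these values rested on 1 cell. POX1 had 1197 CPM in hypotonic cell F24X, which was 93.7% of its signal, and its log2 fold change of 2.38 became -1.32 without that cell. POT1 had 754 CPM in F21X and went from 1.51 to -0.28, and PXA1 had 153 CPM in F30X and went from 2.10 to 0.51. CTA1 went from -2.48 to 1.35 without isotonic cell G53. FAA2 and ECI1 stayed at least 2-fold lower whichever single cell was left out, with means of 16.02 ± 28.7 against 108 ± 299 CPM and of 19.2 ± 49.3 against 113 ± 314 CPM. FAA2 was, however, within 2-fold at -0.24 against the isotonic cells named A alone.

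**Figure D4:**
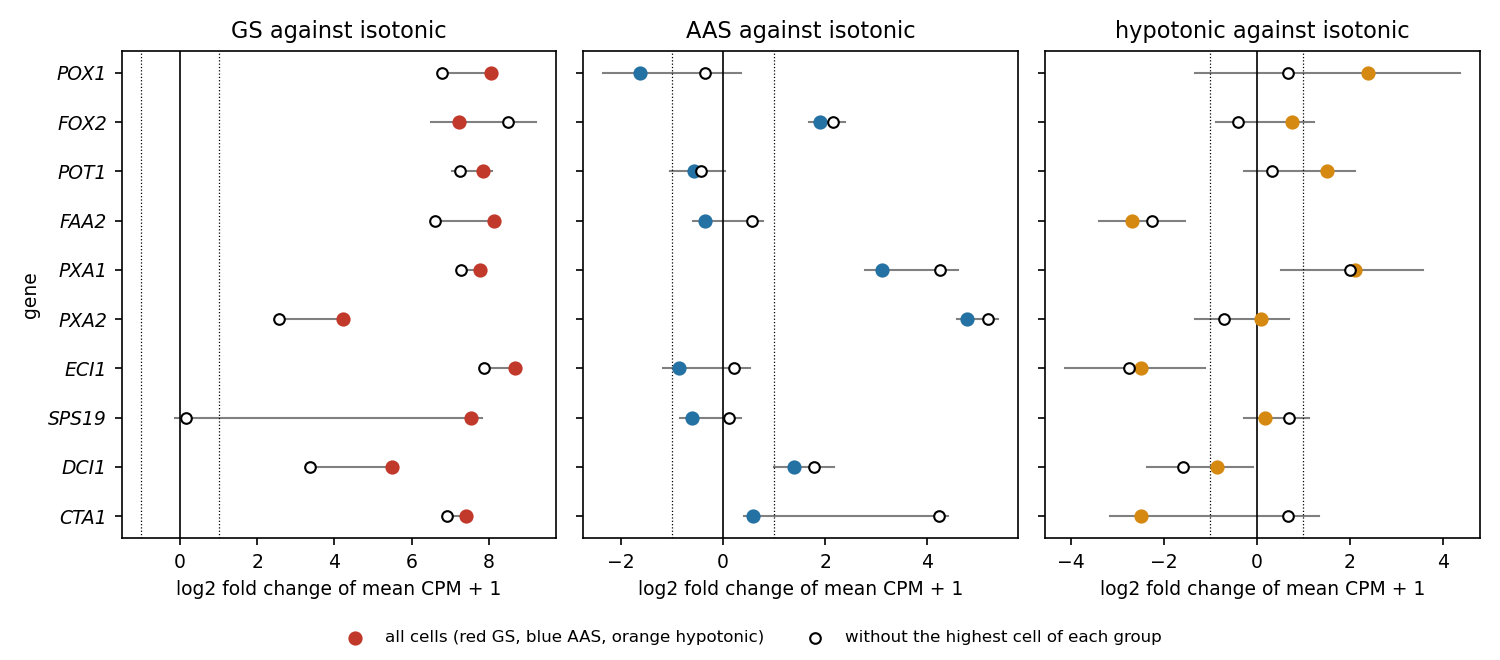
Filled points give the log2 fold change of mean CPM + 1 of each gene in GS, AAS and hypotonic cells, each against isotonic cells of the same batch, open points the value without the highest cell of each group, and grey lines the range when any single cell is left out; dotted lines mark 2-fold. In GS all genes lie between 4.23 and 8.68, and SPS19 falls to -0.13 without 1 cell, while in AAS and hypotonic cells genes lie on both sides of 0.

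**Figure D5:**
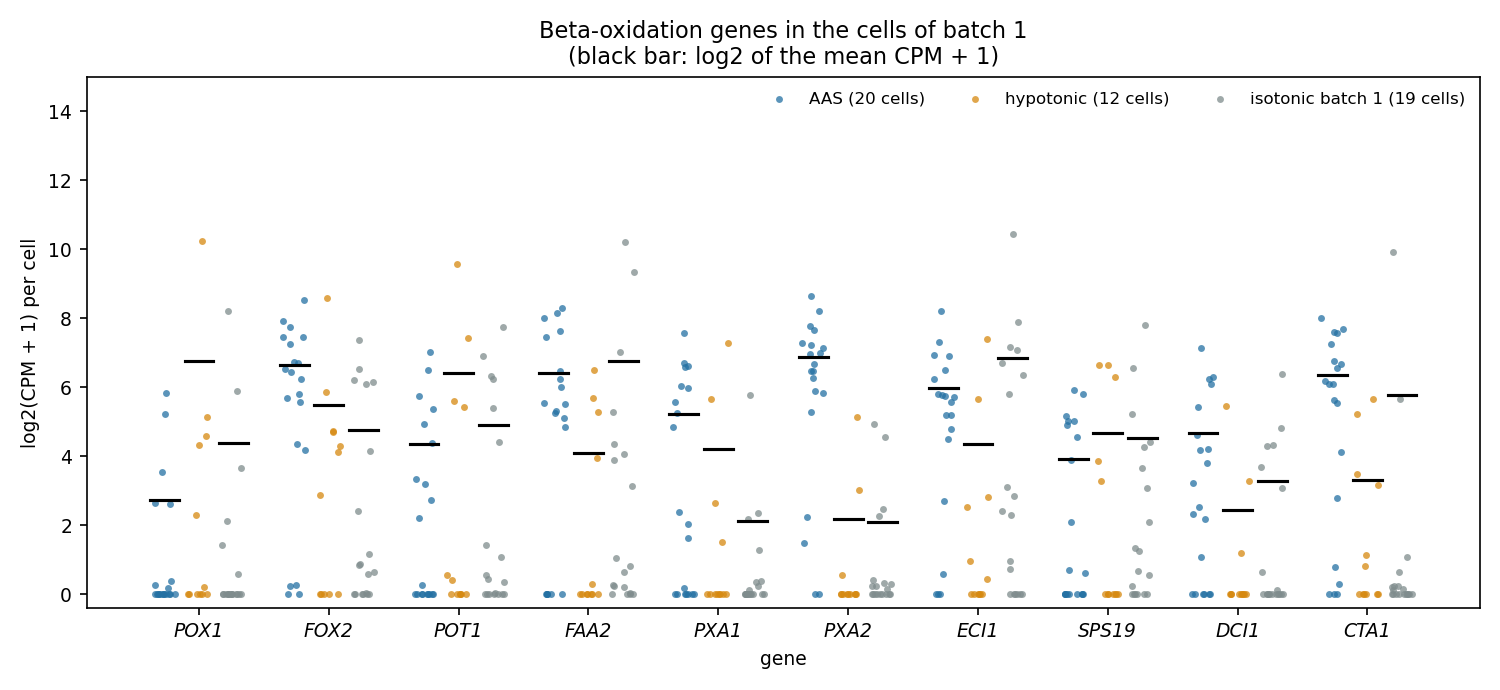
Each point is 1 cell of batch 1, with log2(CPM + 1) on the vertical axis, for 20 AAS (blue), 12 hypotonic (orange) and 19 isotonic cells (grey), and black bars give log2 of the mean CPM + 1. PXA2, FOX2 and CTA1 are read in most AAS cells, at means of 115 ± 103, 99.0 ± 98.0 and 81.03 ± 80.1 CPM (SD). Several black bars of hypotonic and isotonic cells lie far above most points.

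The order of the members by mean level also differed between treatments. Per kilobase of coding length, the GS means ran from 542 CPM for ECI1, 269 for FOX2, 259 for POT1 and 257 for SPS19, through 126 for FAA2, 119 for POX1, 109 for CTA1, 83.7 for PXA1 and 53.6 for DCI1, down to 6.95 for PXA2. The SD over cells exceeded the mean of every gene, so neighbours in this order do not differ beyond their spread. In AAS cells ECI1 again led with 73.5 CPM per kilobase, followed by CTA1 with 52.3, PXA2 with 45.1, FAA2 with 37.5 and FOX2 with 36.6, and POX1 was last with 2.53. PXA2, the lowest member in GS cells, was thus among the upper ones in AAS cells.

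Genes that work beside beta-oxidation were taken from lists written from known function. In the carnitine shuttle, which moves acetyl units out of the peroxisome and into mitochondria, 4 of 5 genes passed the detection filter in the GS comparison and all 4 were higher, against 43.3% of all genes that passed it. The filter counts GS and isotonic cells together, so a gene read mostly in GS cells can pass through that group. CRC1 passed with 13 GS cells and 1 isotonic cell, and MLS1 with 20 and 1. Counts of higher genes among those that passed, here and below, thus depend on the filter and are a description only. YAT1, an outer carnitine acetyltransferase, averaged 4270 ± 5622 CPM under GS against 112 ± 367 CPM (log2 fold change 5.24), and it was read in 25 of 27 and 7 of 19 cells. CAT2, the carnitine acetyltransferase of peroxisomes and mitochondria, had 2144 ± 4351 and 69.4 ± 301 CPM, a log2 fold change of 4.93. CRC1, the mitochondrial acylcarnitine carrier, and YAT2 had log2 fold changes of 3.83 and 1.60.

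Of 12 other peroxisomal enzymes and carriers, 6 passed the filter in GS, 5 were higher and 0 lower, beside 43.3% of all genes higher and 23.8% lower. MLS1, the malate synthase of the glyoxylate cycle, was read in 20 of 27 GS cells and 1 of 19 isotonic cells, with 1654 ± 2726 and 1.204 ± 5.25 CPM, a log2 fold change of 9.55. NPY1, an NADH diphosphatase, CIT2, the peroxisomal citrate synthase, and MDH3, the peroxisomal malate dehydrogenase, had 4.45, 2.85 and 2.79. Among 31 peroxins and inheritance factors, which build, divide and distribute the organelle, 3 passed, with PEX19, the import receptor for membrane proteins, higher (4.25) and PEX11, which drives division of the organelle, lower (-5.38). PEX11 was read in 3 of 27 GS and 9 of 19 isotonic cells.

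Of 15 regulators, 6 passed the filter in GS, 3 were higher and 1 was lower, which is near the shares of all genes (43.3% and 23.8%). ADR1, the activator named above, had a read in 12 of 27 GS cells (mean 222 ± 480 CPM, SD) and 0 of 19 isotonic cells, at least 750-fold higher in summed reads. CAT8, an activator of gluconeogenic genes, and SNF1, the kinase, had log2 fold changes of 4.17 and 1.12, and REG1, the subunit that directs the phosphatase Glc7 against Snf1, had -5.19. Of the synthetases outside the peroxisome, FAA1 had 2.57 and FAA4 had 1.12, and of the lipases TGL5 had 4.52. FAA1 was read in 19 of 27 GS and 8 of 19 isotonic cells, but FAA4 in only 5 and 7, at means of 299 ± 976 and 137 ± 463 CPM. Of 8 genes of fatty acid synthesis, 5 passed and 1 was higher, and it did not stay so without the highest cells.

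In AAS cells 16 of 31 peroxins were higher and 0 lower, beside 39.8% and 12.3% of all genes, with a list median of 1.01 against 0.65 over all genes. PEX32 and PEX28, proteins of peroxisome size and number, had log2 fold changes of 3.06 and 2.87. PEX9, an import receptor used on oleate, was read in 13 of 20 AAS cells and 0 of 19 isotonic cells. Its AAS mean was low, at 9.04 ± 11.1 CPM, and its log2 fold change was 3.33. In summed reads it was at least 641-fold higher, a limit set by a floor that weighs only 0.013 CPM in the deep isotonic group. Of the regulators OAF1, PIP2 and OAF3 had 1.62, 2.26 and 2.03, of 14 that passed 5 were higher and 1 lower, close to the shares of all genes, and the elongases ELO2 and ELO3 had -1.85 and -1.91. YAT1, higher in GS, was lower in AAS (-2.41) and in hypotonic cells (-2.20).

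In AAS cells 4 of 12 other peroxisomal enzymes and carriers were higher and 0 lower, so the share that was higher did not exceed the 39.8% of all genes. STR3, a peroxisomal enzyme of methionine synthesis rather than of fatty acid breakdown, had 895 ± 653 and 80.5 ± 193 CPM, a log2 fold change of 3.46, and LPX1, a peroxisomal lipase, had 2.60. Of 6 neutral lipid lipases, 3 were higher, with TGL4 at 525.1 ± 337 and 212.8 ± 239 CPM and a log2 fold change of 1.30. In hypotonic cells 9 peroxins were higher and 9 lower of 30 that passed, and 3 regulators were higher and 4 lower of 14, beside 19.3% and 31.8% of all genes. Without the highest cells 6 and 8 peroxins and 1 and 3 regulators stayed so. FAA4, a long-chain acyl-CoA synthetase, averaged 2013 ± 2540 CPM after hypotonic treatment against 375 ± 953 CPM (log2 fold change 2.42), with a read in 12 of 12 and 18 of 19 cells.

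The ORE was looked for in front of other genes as well. Outside the members, 104 counted genes held a match, and 38 passed the filter in GS, of which 21 (55.3%) were higher and 12 (31.6%) were lower, beside 43.3% and 23.8% of all genes. With only 38 genes such differences amount to a few genes, and they were not tested. The corresponding shares were 38.4% and 15.2% of 99 genes in AAS and 18.1% and 27.7% of 94 genes in hypotonic cells, close to the background of each comparison. Of the lists, 4 of 31 peroxins held it (PEX5, PEX6, PEX11 and PEX13), 3 of 12 other peroxisomal enzymes (TES1, IDP3 and MDH3), 2 of 5 carnitine shuttle genes (YAT1 and CRC1) and 1 of 15 regulators (PIP2). PEX11 held the element and was lower in GS, so a match did not go with one direction.

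Genes whose CPM was most like that of the members over the 27 GS cells were ranked by Spearman correlation among 1992 genes read in at least 20% of these cells. The summed CPM of the members was most like that of CAT2 (0.74), ACS1 (0.70), TKL2 (0.67), GRE1 (0.67) and GDH2 (0.66), which encode the carnitine acetyltransferase, an acetyl-CoA synthetase, a transketolase, a hydrophilin and a glutamate dehydrogenase. FOX2 alone was most like AHC1 (0.71), CSS3 (0.64), YOL107W (0.63), URM1 (0.61) and ADH2 (0.60), the last being the alcohol dehydrogenase that uses ethanol. ADH2 had 5087 ± 9031 CPM in GS cells and 12.7 CPM in isotonic cells. These correlations are over cells of 1 batch whose counts are sparse, and they are given as a description.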

How the data were processed

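Single spheroplasts were picked by pipette, and their poly(A) RNA was copied with an oligo-dT primer, tailed, amplified by PCR without molecular identifiers and sequenced. The deposited values are read counts per gene, made by the authors with STAR 2.5.2 and HTSeq on the R64 genome from uniquely aligned reads, with no normalization. The entries that name no gene took 2.59 to 76.7% of reads on genes and such entries together, and they and ERCC were left out of totals. Counts were divided by reads on genes to give CPM, and fold changes are log2 of mean CPM + 1. The members and lists were chosen with earlier results of these data known. Named genes are all members, up to 4 genes per list and comparison with the largest change that stayed at least 2-fold without the highest cells, and 5 like genes each for FOX2 and the sum. Groups follow the treatment labels, batches the paper, and the 84 cells that the study kept were an alternative. Cells were thinned without replacement to 3000000 reads in batch 1 and 100000 in batch 2. A 0 was given an upper limit or a floor of 3 reads over the group. No 2 libraries held identical counts. Alternatives were pseudocounts 0.1 and 10, summed reads, TMM (edgeR 4.0.16), DESeq2 1.42.0 size factors, mean log2(CPM + 1), left-out cells and name prefixes. ERCC scaling and the other batch's isotonic cells were added after seeing the data. Of the measures, only the log2 fold change was run on simulated counts, which had a mild spread between cells. Single cells that hold most reads of a gene were not simulated, so that run does not cover them. Upstream windows and coordinates came from RefSeq R64. Python 3.11.15, NumPy 2.4.6, SciPy 1.17.1, pandas 2.3.3, matplotlib 3.10.9 and R 4.3.3 were used. Not every gene that the naming rule selects is reported here.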

Additional observations from a re-analysis of the deposited data

Results flagged for a closer look

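The 20 GS cells named Y2 enter no comparison above, because they hold a median of only 3218.5 reads on genes and the study kept none of them. They nevertheless held reads of the members at 579 CPM over the summed reads, against 1.24 CPM in the isotonic cells of the same batch. The 390 reads fell in 10 of 20 cells. PXA2 had 135 of them, 119 in cell Y210, and FAA2 had 68, with 66 in Y210. POT1 had 59, of which 58 came from Y215, and ECI1 and CTA1 had 54 and 52. POX1 and DCI1 had 0 reads. The cause of the difference between these cells and the GS cells named Y5 was not tested.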

How the results depend on the processing

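All 10 members stayed at least 2-fold higher in GS under every alternative run except 3, with 9 without the highest cell of each group, 7 with the mean of log2(CPM + 1) and 7 with the GS cells named Y2 alone. The median log2 fold change in GS was 7.66, and it was 10.1 and 4.66 with pseudocounts of 0.1 and 10 CPM, 2.04 with the mean of log2(CPM + 1), 4.78 with the cells named Y2 alone and 2.75 with the isotonic cells of batch 1. The log2 ratio of summed CPM was 8.92 and became 2.82 with those isotonic cells.

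In AAS the count of higher members was 4, fell to 3 with a pseudocount of 10 CPM, with DESeq2 size factors and with the AAS cells with X in the name, and became 7 with the mean of log2(CPM + 1), where the median log2 fold change went from 0.11 to 1.68. POX1 turned from -1.63 to 1.57 against the isotonic cells named A, and DCI1 from 1.39 to -0.57 with the AAS cells with X in the name. In hypotonic cells the count of 3 became 1 with the mean of log2(CPM + 1) and without the highest cells, and 6 when only isotonic cells named E or G served as reference. CTA1 turned from -2.48 to 0.67 under both of the former and to 3.10 against the isotonic cells named A. The cause of these shifts was not tested. The count of lower members in AAS was 1, and 4 with TMM or DESeq2 size factors, which move every gene by -0.74 and -0.80 (log2) in AAS, by -0.19 and -0.41 in GS and by 0.21 and 0.32 in hypotonic cells. No paired analysis was possible because replicate numbers were given in accession order and mark no shared origin.

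Depth limits the values of batch 2 most, since 1 read weighs 2.31 CPM in the isotonic cell of median depth and 70.2 CPM in the shallowest.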
